A study of Mus musculus with 6 samples.

Results

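The genes described here are 36 transcription factors that steer the fate of CD8 T cells, chosen as a list of gene symbols, out of 26754 genes in the deposited tables. All 36 symbols were found. Of these, 20 averaged 20 CPM or more (reads per 1000000 reads in genes) and were tested between day 7 and day 14, while 11 averaged 5 to 20 CPM and 5 fell below 5 CPM. RPKM, the unit of the values below, is reads per kilobase of transcript and per 1000000 reads in genes.

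The cells came from subcutaneous B16 melanomas, a mouse tumour line, in female C57BL/6J mice of 6 to 8 weeks, and were selected with magnetic beads against CD8a. Both groups have the same genotype, labelled C57, and differ only in the day of collection after tumour implantation, day 7 or day 14, with 3 libraries each. No treatment, transgene or gene deletion is given for either group. Nothing in the labels says that the 3 libraries of a day come from separate mice, so p-values measure only the spread between these libraries, which may be technical.

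A CD8 T cell that meets antigen can become a short-lived killer cell, a long-lived memory cell or, under lasting stimulation in a tumour, an exhausted cell. TCF-1 (Tcf7), LEF-1, FOXO1, BACH2 and ID3 are known for holding the memory and stem-like state, whereas T-bet (Tbx21), BLIMP-1 (Prdm1), ID2 and ZEB2 drive effector differentiation. TOX and the NR4A receptors act in exhaustion, HOBIT (Zfp683) and RUNX3 in tissue residency, and BCL11B, GATA3, SATB1 and the Ikaros family in T lineage identity. Several of these factors are also made outside the T lineage, for example ZEB2, MAF, KLF6, BHLHE40 and NR4A1 in macrophages.

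Libraries held 6523019 to 9313078 reads in genes on day 7 and 11385106 to 13316522 on day 14. Genes with a read numbered 13133 to 13806 on day 7 and 18318 to 19053 on day 14. How many molecules the reads stand for is not known, so 0 reads of a low gene on day 7 need not mean absence. To compare replicates, reads were divided by 2, as 2 reads per fragment. In each library 75.1% to 86.9% of low read numbers were even. All other read numbers, also those fitted later, are not divided. Between the first 2 day 7 libraries the spread was close to pure sampling (median chi-square ratio over genes 1.11), against 40.9 and 44.4 between them and replicate 3. The mean of day 7 replicates 1 and 2 was therefore used as 1 sample, so that n = 2 on day 7 and n = 3 on day 14. Pairs of day 14 libraries gave ratios of 4.05 to 4.43, far below those with day 7 replicate 3, and were kept as separate samples. The bead target Cd8a was at 17.3, 16.4 and 42.3 RPKM on day 7 and 8.50, 8.01 and 7.08 on day 14. The summed RPKM of 12 T cell genes was 386 to 405 in the day 7 libraries and 101 to 118 in the day 14 libraries, 3.61-fold lower on day 14 between the means. Markers of other cells differed as well: 4 of 8 tested macrophage and 3 of 6 tested melanoma markers rose, and both tested natural killer cell markers fell. From day 7 to day 14 the summed RPKM went from 297 to 390 up to 623 to 642 for 8 macrophage markers, from 5580 to 5810 up to 10300 to 11300 for 6 melanoma markers, and from 68.6 to 114 down to 11.6 to 14.0 for 4 natural killer cell markers. Most of the melanoma sum was Dct, with means of 4530 RPKM on day 7 and 9110 on day 14, while Pmel was at 403 and 453 and not called. Lyz2 made up the larger part of the macrophage sum (207 and 383), and Adgre1 and C1qc were slightly lower on day 14 without a call. No marker of these lists was at 0 in all libraries, and the part of other cell types in the results below was not tested. Fewer T cells in a sample and less RNA per T cell cannot be told apart in such bulk samples.

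Of the 20 tested factors, 2 fell by day 14, Eomes and Satb1, and none rose. Both passed the 20 CPM filter only through day 7, since each was under 20 CPM in every day 14 library. Eomes passed narrowly, at a mean of 20.4 CPM. Among all 6691 tested genes, limma called 3.18% lower and 1.7% higher (213 and 114 genes at an adjusted p under 0.05). Median-of-ratios size factors shifted the centre of all fold changes to -0.015 on the log2 scale. They gave 300 lower (4.48%) and 57 higher genes (0.852%), and again 2 lower and 0 higher factors. At an unadjusted p under 0.05, 5 factors were lower and 3 higher, beside 8.18% and 11.3% of all genes. In addition, limma-voom on recovered reads called 6 lower and 5 higher, against 10.6% and 21.5% of all genes. Without weights 5 factors were called (15.1% of genes), with the 6 libraries counted singly 10 (23.8%), and with a replicate block on those 6 libraries 6 (17.4%). The median log2 fold change of the 20 factors was -0.15, beside 0.16 for all genes tested.

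**Figure D1:**
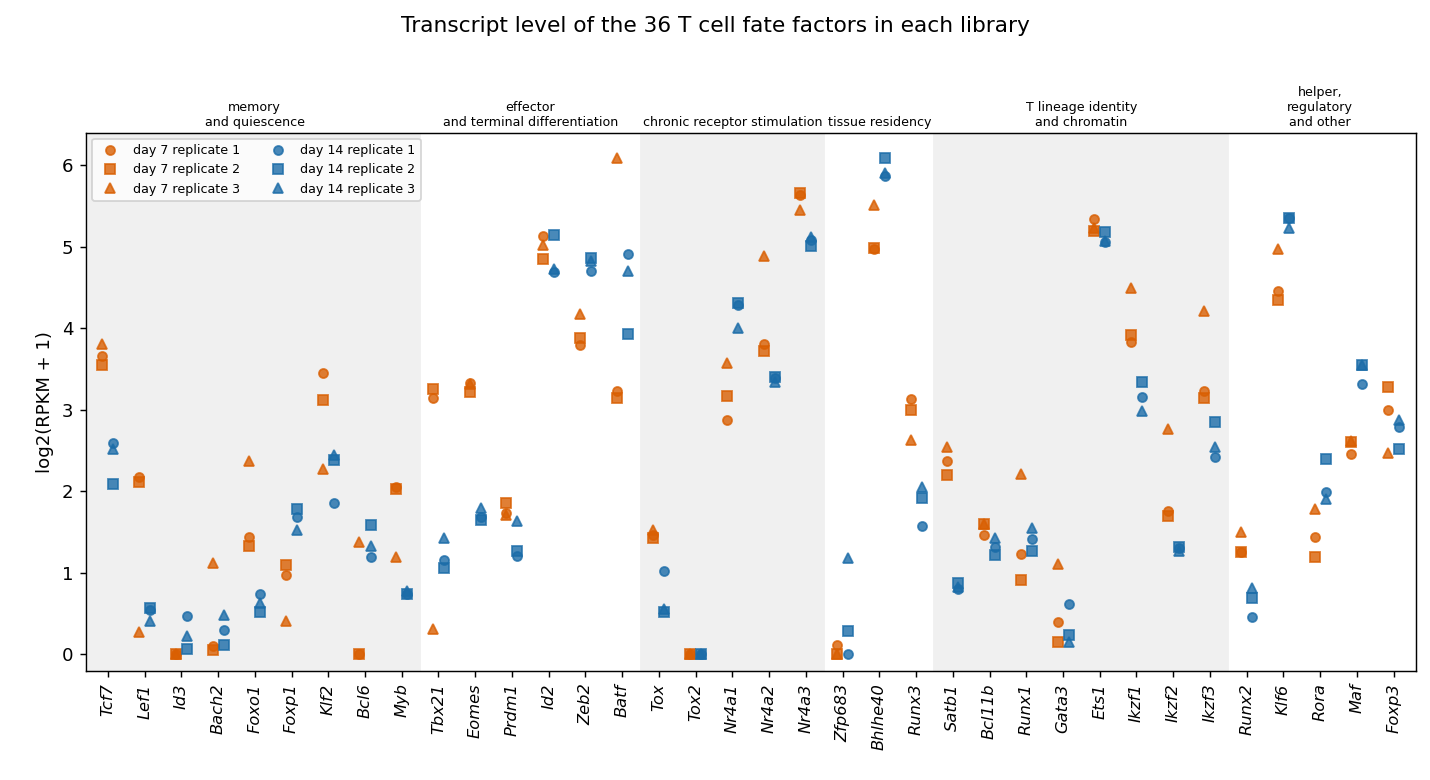
Transcript level of each of the 36 factors in each library, as log2(RPKM + 1), grouped by role; orange marks are the 3 day 7 libraries and blue marks the 3 day 14 libraries. The 3 day 14 libraries lie close together for most factors, while day 7 replicate 3 stands apart from replicates 1 and 2 for factors such as Tbx21, Batf and Lef1.

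The levels spanned from no reads to 66.8 RPKM, a scale that corrects for gene length. On day 7 the factors with the highest means were Nr4a3 at 46.0 RPKM, Bhlhe40 and Batf at 37.6 and 37.5, Ets1 at 37.1 and Id2 at 31.2. The mean of Batf rests on replicate 3, without which it was 8.14. On day 14 they were Bhlhe40 at 61.0, Klf6 at 38.8, Ets1 at 33.4, Nr4a3 at 32.6 and Id2 at 28.2. In the day 14 order, Ets1 and Nr4a3 differed by less than the spread between their libraries. Means were under 1 RPKM for 7 factors on day 7 and 11 on day 14. The 36 factors together summed to 308 to 424 RPKM on day 7 and 327 to 341 on day 14, so the summed level overlapped between the days.

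Eomes, the T-box factor eomesodermin of effector, memory and natural killer cells (chromosome 9, 118478212 to 118486132, plus strand of GRCm38), was at 9.06, 8.35 and 9.0 RPKM on day 7 and 2.22, 2.15 and 2.46 on day 14. Every day 14 library lay below every day 7 library. The mean fell from 8.85 ± 0.21 (SD, n = 2) to 2.27 ± 0.16 (SD, n = 3), 3.89-fold. The log2 fold change, on the scale of log2(RPKM + 1) as throughout, came to -1.59 (SE 0.34, limma adjusted p = 0.0233). The call ended without day 7 replicate 3 (adjusted p = 0.161) and with a filter of 5 CPM (adjusted p = 0.0562).

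Satb1, a chromatin organiser needed for thymocyte development (on the minus strand of chromosome 17 from 51736187 to 51833290), had levels of 4.17, 3.60 and 4.82 RPKM on day 7 and 0.748, 0.841 and 0.774 on day 14. Again the groups did not overlap. Its mean fell from 4.35 ± 0.66 (SD, n = 2) to 0.787 ± 0.048 (SD, n = 3), 5.53-fold, with a log2 fold change of -1.58, an SE of 0.39 and a limma adjusted p of 0.0426. This call ended when day 7 replicate 1 or 3 or any 1 of the day 14 libraries was left out, with adjusted p from 0.0528 to 0.282, and with the 5 CPM filter (adjusted p = 0.139).

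The promoter of Eomes is shown because it is the called factor with the lower p, and as a description only. RefSeq places it on GRCm38.p6 at chr9:118477939-118478188, plus strand, and the printed stretch is the 250 bases before the annotated start. The capitals mark TATANAA, the letters searched for a TATA box on both strands, found in 10.4% of 32851 promoter windows of this length.

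Eomes: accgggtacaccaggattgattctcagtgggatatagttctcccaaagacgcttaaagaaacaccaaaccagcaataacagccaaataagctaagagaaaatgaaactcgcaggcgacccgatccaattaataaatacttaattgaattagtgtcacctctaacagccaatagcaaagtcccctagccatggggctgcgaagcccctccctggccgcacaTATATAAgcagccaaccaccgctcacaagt

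The 9 memory and quiescence factors were mostly of low level, and only Foxp1 passed the filter for testing. Tcf7, which encodes TCF-1, the factor of stem-like and memory T cells, was at 11.6, 10.7 and 13.0 RPKM on day 7 and 5.02, 3.25 and 4.75 on day 14. The groups did not overlap, and at a mean of 19.5 CPM the gene lay just under the filter; with a filter of 5 CPM its log2 fold change was -1.30 (limma adjusted p = 0.16). Lef1, the close relative of TCF-1, was at 3.54 and 3.32 RPKM in day 7 replicates 1 and 2 but 0.209 in replicate 3, below all 3 day 14 libraries (0.46, 0.489 and 0.325).

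Foxp1, a factor that keeps naive T cells quiescent, was at 0.967, 1.14 and 0.334 RPKM on day 7 and 2.21, 2.45 and 1.87 on day 14, higher in every day 14 library but not called (log2 fold change 0.94, limma adjusted p = 0.29). Foxo1, which drives homing and memory genes, lay lower in every day 14 library, at 1.71, 1.51 and 4.18 against 0.669, 0.432 and 0.555 RPKM. Myb, a factor of stem-like T cells, did so too, at 3.15, 3.08 and 1.30 against 0.669, 0.677 and 0.715. Klf2, which controls the receptors for exit from tissue, overlapped between the days, at 9.92, 7.67 and 3.82 RPKM on day 7 and 2.62, 4.22 and 4.47 on day 14, as did Bcl6, the repressor known from follicular helper cells and memory precursors. Bcl6 had no reads in day 7 replicates 1 and 2 and 1.60 RPKM in replicate 3, within the 1.30 to 2.00 of day 14. Bach2, which restrains effector genes, was at 0.0757, 0.0432 and 1.17 RPKM on day 7 and 0.23, 0.0881 and 0.393 on day 14. Id3, an inhibitor of E proteins, had 0 reads in the day 7 libraries and 8, 1 and 4 reads on day 14, too few to compare.

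The 6 effector factors differed in pattern from one another, and Eomes was the one called. Beside Eomes, its T-box relative Tbx21, which encodes T-bet, was at 7.87 and 8.59 RPKM in day 7 replicates 1 and 2 and 0.246 in replicate 3, against 1.24, 1.09 and 1.69 on day 14. Day 7 replicate 3 thus lay below all day 14 libraries, whereas its Eomes level matched that of the other day 7 libraries. Zeb2, a repressor that acts with T-bet in terminal effector cells, was at 12.9, 13.7 and 17.1 RPKM on day 7 and 25.1, 28.1 and 27.4 on day 14. All 3 day 14 values were higher, with a log2 fold change of 0.79 and no call (limma adjusted p = 0.196).

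Batf, an AP-1 family factor that works with IRF4 downstream of the T cell receptor, was at 8.41 and 7.87 RPKM in day 7 replicates 1 and 2, 66.8 in replicate 3, and 29.0, 14.2 and 25.1 on day 14. The day 7 libraries surrounded the day 14 values, 8.20-fold apart between replicate 3 and the mean of replicates 1 and 2. Id2, the E protein inhibitor of effector and natural killer cells, stood at 34.0, 27.9 and 31.4 RPKM on day 7 and 24.9, 34.3 and 25.5 on day 14 and overlapped (log2 fold change -0.15, 95% interval -0.92 to 0.61). Prdm1, which encodes BLIMP-1, was at 2.33, 2.62 and 2.26 RPKM on day 7 and 1.31, 1.42 and 2.12 on day 14, lower without overlap by a small margin.

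Members of the NR4A family, orphan nuclear receptors induced quickly by antigen receptor signals, lay in different directions between the days. Nr4a1 was at 6.34, 8.03 and 10.9 RPKM on day 7 and 18.5, 18.8 and 15 on day 14, with all day 14 libraries higher (log2 fold change 0.89, limma adjusted p = 0.255). Nr4a2 was at 13.0, 12.2 and 28.7 RPKM on day 7 and 9.46, 9.61 and 9.10 on day 14, all lower (log2 fold change -0.95, limma adjusted p = 0.161). Nr4a3, the most abundant of the family in each library, was at 48.7, 49.5 and 42.9 RPKM on day 7 and 32.8, 31.3 and 33.7 on day 14, also lower throughout (log2 fold change -0.48, limma adjusted p = 0.268). None of the 3 was called, and relative to T cell genes all 3 had values above 0 (2.60, 0.77 and 1.33).

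The promoters of the 3 NR4A genes are printed because the genes share a promoter feature while their levels lay in different directions. The letters searched, TGACG on both strands, are the core of the cAMP response element, at which CREB and related factors bind. Each of the 3 holds 4 copies in the 250 bases before its start, as do or exceed 45 of 32851 RefSeq promoter windows (0.137%), and no other factor promoter does among 51 windows of 29 factors with an entry. This motif was picked for display after 12 motifs had been searched, so its rarity describes genes chosen for holding it. At least 1 copy is found in 12 of the 51 factor windows and in 17.8% of all windows, and the full element TGACGTCA in 0 of 51 and 1.55%. The stretches are at chr15:101266596-101266845 (plus strand) for Nr4a1, chr2:57124004-57124253 (minus strand) for Nr4a2 and chr4:48045055-48045152 (plus strand) for Nr4a3, all on GRCm38.p6 from RefSeq. For Nr4a3 only the 98 bases outside annotated exons are printed, which hold 3 of its 4 copies, and capitals mark the copies.

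Nr4a1: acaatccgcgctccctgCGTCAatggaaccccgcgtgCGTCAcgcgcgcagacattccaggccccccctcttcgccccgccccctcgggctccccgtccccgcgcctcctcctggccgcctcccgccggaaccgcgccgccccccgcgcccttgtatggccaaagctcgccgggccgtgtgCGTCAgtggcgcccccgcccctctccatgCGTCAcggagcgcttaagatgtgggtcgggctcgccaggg

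Nr4a2: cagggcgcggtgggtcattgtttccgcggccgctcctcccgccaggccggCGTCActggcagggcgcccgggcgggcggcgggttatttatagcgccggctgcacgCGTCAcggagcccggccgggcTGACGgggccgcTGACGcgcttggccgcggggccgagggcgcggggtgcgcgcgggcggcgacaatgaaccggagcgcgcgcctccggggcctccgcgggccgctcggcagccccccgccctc

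Nr4a3: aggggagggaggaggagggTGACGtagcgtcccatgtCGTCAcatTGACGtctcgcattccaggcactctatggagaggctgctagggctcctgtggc

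Tox, the chromatin factor that establishes the exhausted state, was at 1.75, 1.69 and 1.89 RPKM on day 7 and 1.04, 0.439 and 0.474 on day 14. Every day 14 library was lower, with a log2 fold change of -0.78 at the 5 CPM filter and no call (limma adjusted p = 0.662). Its relative Tox2 had no reads in any library.

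Bhlhe40, a basic helix-loop-helix factor that sustains mitochondrial function in resident T cells, had the highest day 14 mean of the 36 factors. It was at 30.4, 30.8 and 44.6 RPKM on day 7 and 57.3, 66.8 and 59.0 on day 14, higher in every day 14 library but not called (log2 fold change 0.70, limma adjusted p = 0.187). Runx3, which fixes the CD8 lineage and residency, was at 7.77, 7.02 and 5.21 RPKM on day 7 and 1.98, 2.77 and 3.15 on day 14. Its groups did not overlap, with a log2 fold change of -1.0 and no call (limma adjusted p = 0.285). Zfp683, which encodes HOBIT, had at most 1 read in each day 7 library and 0, 4 and 25 reads on day 14.

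Among the 8 factors of T lineage identity, 6 had every day 14 library below every day 7 library, beside 16.1% of all genes that pass the 5 CPM filter, and Satb1 alone was called. Gata3, 1 of the 8, did not pass that filter. Of the 6, Ets1 (lowest day 7 library 35.6 RPKM, highest day 14 library 35.3) and Bcl11b (1.76 and 1.69) were apart only narrowly. The 3 Ikaros family zinc finger genes were among the 6. Ikzf1, which encodes Ikaros, was at 13.2, 14.1 and 21.5 RPKM on day 7 and 7.92, 9.12 and 6.95 on day 14 (log2 fold change -1.02, limma adjusted p = 0.15). Ikzf3, which encodes Aiolos, was at 8.40, 7.87 and 17.6 against 4.34, 6.19 and 4.85 RPKM (log2 fold change -1.10, adjusted p = 0.176). Ikzf2, which encodes Helios, was at 2.38, 2.24 and 5.77 against 1.47, 1.49 and 1.42 RPKM. All 3 turned above 0 when scaled to T cell genes (0.69, 0.54 and 0.35), each with a 95% interval that holds 0. The median of all genes tested on that scale was 1.85.

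Ets1, a factor of T cell survival and one of the most even members, was at 39.6, 35.6 and 36.6 RPKM on day 7 and 32.4, 35.3 and 32.6 on day 14, with a log2 fold change of -0.15 and a 95% interval of -0.67 to 0.38. Bcl11b, which commits progenitors to the T lineage, was at 1.76, 2.04 and 2.04 RPKM on day 7 and 1.49, 1.32 and 1.69 on day 14. Runx1, a factor of early T cell and blood development, overlapped, with 3.63 RPKM in day 7 replicate 3 against 1.34 and 0.89 in replicates 1 and 2, and 1.68, 1.41 and 1.92 on day 14. Gata3, the factor of thymocytes and type 2 helper cells, had 4 to 30 reads in each library and overlapped too.

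The last group holds factors best known from other T cell lineages. Maf, a factor of helper and regulatory T cells and of macrophages, was at 4.51, 5.08 and 5.13 RPKM on day 7 and 8.95, 10.7 and 10.7 on day 14. Klf6, a zinc finger factor widely made in activated cells, was at 20.9, 19.4 and 30.5 RPKM on day 7 and 39.9, 40 and 36.4 on day 14. Both were higher in every day 14 library without a call (log2 fold changes 0.90 and 0.62, limma adjusted p = 0.321 and 0.258). Rora, a nuclear receptor of type 17 helper and innate lymphoid cells, was at 1.71, 1.30 and 2.44 RPKM on day 7 and 2.98, 4.27 and 2.75 on day 14. Runx2 was lower without overlap, at 1.39, 1.39 and 1.84 against 0.378, 0.613 and 0.765 RPKM.

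Foxp3, the defining factor of regulatory T cells, was present on both days, at 6.98, 8.69 and 4.53 RPKM on day 7 and 5.92, 4.75 and 6.34 on day 14. The groups overlapped, with a log2 fold change of -0.076 and a 95% interval of -1.10 to 0.95. Exons of Ccdc22 on the opposite strand cover 14.8% of the Foxp3 gene model, and since the strand setting of the counting is not given, reads there cannot be assigned to either gene. The CD4 marker Cd4 was at 8.34, 8.73 and 8.82 RPKM on day 7 and 3.35, 5.65 and 3.87 on day 14.

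Counted over the 20 tested factors, the groups did not overlap for 9 lower and 7 higher factors. Of these, Eomes, Satb1, Runx3 and Ikzf2 were under 20 CPM in every day 14 library, and Foxp1 in every day 7 library. They passed the filter only through the day on which they were higher, so their directions are no independent support. Over all 6691 tested genes the shares were 17.8% lower and 31.6% higher. With a filter of 5 CPM, 16 of 31 factors were lower and 7 higher without overlap, beside 16.1% and 29.8% of 10913 genes, and none of the 31 was called by limma, beside 2.67% of genes called higher and 2.2% lower (at an unadjusted p under 0.05, 6 factors were lower and 2 higher, beside 6.36% and 10.2% of genes). The direction of these counts depends on the scaling, as the values per T cell transcript show.

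Because T cell transcripts made up a smaller share of the RNA on day 14, the fit was repeated with each sample scaled to the summed RPKM of the 12 T cell genes (among them Cd3d, Cd3e, Cd3g, Cd2, Lck and Trac). On this scale the genes tested had a median of 1.85, and 93.9% were called higher and 0.269% lower. The 95% interval lay above 0 for 94.0% of genes, held 0 for 5.74% and lay below 0 for 0.269%. Of the 20 tested factors, 14 had an interval above 0, 6 had one that holds 0 and none had one below 0, and 13 were called higher, with a median of 1.57. With the 5 CPM filter, 13 of 31 lay above 0 and 18 held 0, beside 82.0% and 17.6% of genes, with 0.357% below 0.

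**Figure D2:**
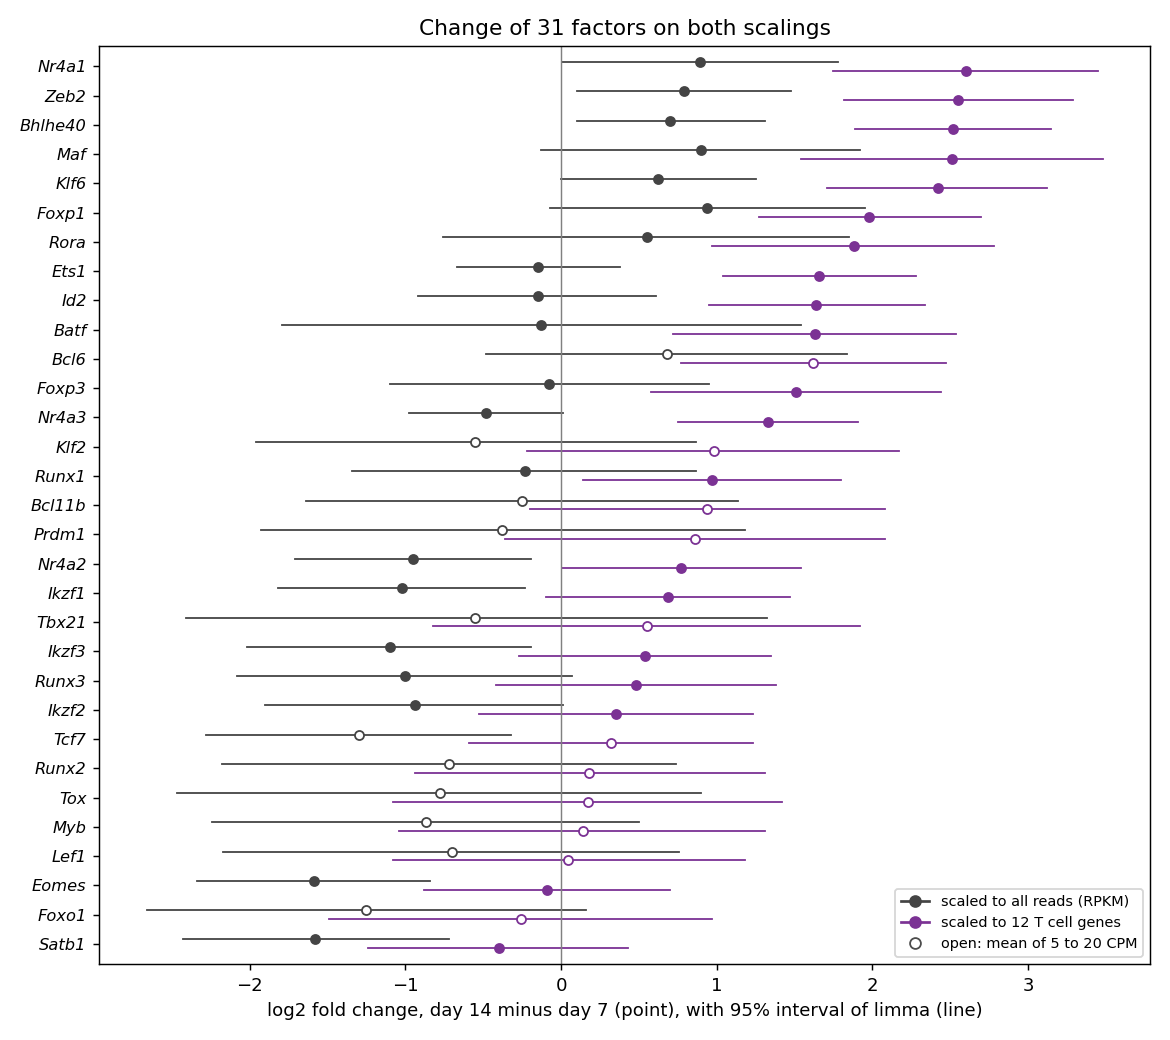
Log2 fold change from day 7 to day 14 of 31 factors (points) with limma 95% intervals (lines), scaled to all reads in grey and to 12 T cell genes in purple; filled points had a mean of 20 CPM or more and open points 5 to 20 CPM, fitted with the lower filter. Eomes and Satb1 lie below 0 in grey and near 0 in purple, while Nr4a1, Zeb2, Bhlhe40, Maf and Klf6 lie above 2 in purple.

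The factors spread widely on the T cell scale. Eomes stood at -0.089 (95% interval -0.88 to 0.70) and Satb1 at -0.40 (-1.24 to 0.43), so neither differed from the summed T cell genes beyond its error. The tested scaling genes themselves did not move together, and ranged on this scale from -0.52 (Trac) to 1.0 (Cd3g). Runx3 stood at 0.48 (-0.42 to 1.38). Among the less abundant factors, with the 5 CPM filter, Tcf7 stood at 0.32 (-0.59 to 1.23), Lef1 at 0.048, Tox at 0.17, Myb at 0.14, Runx2 at 0.18 and Foxo1 at -0.26, all with intervals that hold 0. Apart from Tcf7 these factors, and Satb1, had day 14 means under 1 RPKM, where the 1 added to each RPKM draws changes toward 0. In RPKM the means fell 4.29-fold for Lef1, 2.78-fold for Tox, 3.21-fold for Myb, 2.76-fold for Runx2 and 5.24-fold for Foxo1. The summed T cell genes fell 3.61-fold.

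At the other end, 5 of the 20 factors lay above 2, beside 39.2% of all tested genes. Nr4a1 stood at 2.60 (95% interval 1.75 to 3.45), Zeb2 at 2.55 (1.82 to 3.29), Bhlhe40 at 2.52 (1.89 to 3.15), Maf at 2.51 (1.54 to 3.48) and Klf6 at 2.42 (1.71 to 3.12). The macrophage markers had a median of 2.90 on this scale and the melanoma markers 2.48, values beside which these 5 factors stand; the part of those cells in them was not tested. Between the ends, Foxp1, Rora, Ets1, Id2, Batf, Foxp3 and Nr4a3 had values from 1.33 to 1.98 with intervals above 0.

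**Figure D3:**
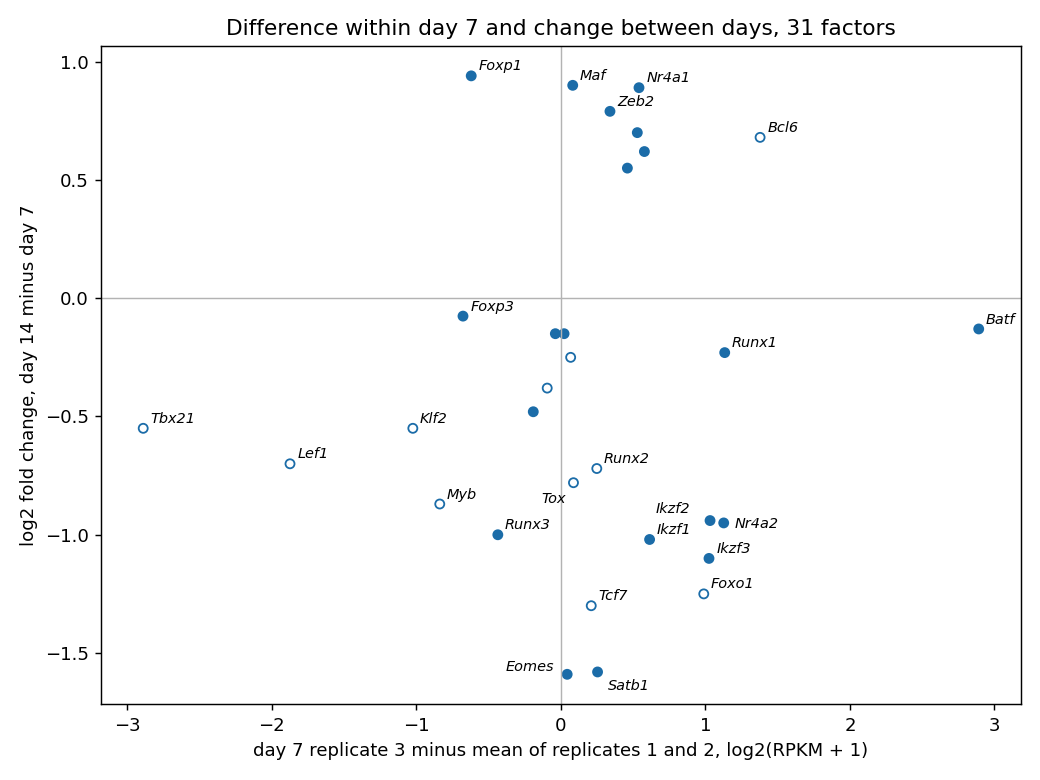
Difference between day 7 replicate 3 and the mean of day 7 replicates 1 and 2 in log2(RPKM + 1) (horizontal axis) against the log2 fold change from day 7 to day 14 (vertical axis) for 31 factors; filled points had a mean of 20 CPM or more, and names are given for points far from 0. Eomes and Satb1 lie low and close to 0 on the horizontal axis, while Batf, Tbx21 and Lef1 differ more within day 7 than between the days.

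The day 7 samples lay further apart than the day 14 libraries for several factors. Day 7 replicate 3 and the mean of replicates 1 and 2 were more than 1 log2 unit apart for 9 of 31 factors, beside 32.1% of all genes at the same filter. On day 14 no factor varied by as much between its libraries, beside 1.72% of genes. Tbx21 was 33.4-fold and Lef1 16.4-fold higher in replicates 1 and 2 than in replicate 3. In replicate 3 they had only 4 and 12 reads, so these folds are imprecise. Klf2 was 2.30-fold higher in replicates 1 and 2 too. In the other direction, replicate 3 exceeded their mean 8.20-fold for Batf, 3.26-fold for Runx1, 2.50-fold for Ikzf2, 2.28-fold for Nr4a2 and 2.17-fold for Ikzf3, and it alone of the day 7 libraries held Bcl6 reads.

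Ratios of factor pairs within a sample depend on the scaling of libraries only through the 1 added to each RPKM, and 10 pairs were each compared by permuting samples between the days (exact test, two-sided). With 2 against 3 samples the smallest p that this test can give is 0.2, so no pair could pass a threshold of 0.05, and the smallest Benjamini-Hochberg adjusted p was 0.667. The samples did not overlap for 3 pairs. The log2 ratio of Tcf7 to Tox stood at 2.16 and 2.27 on day 7, against 1.56, 1.56 and 1.96 on day 14 (difference -0.52). With 0.1 in place of 1 added to each RPKM, the difference was -0.043 (exact permutation p = 1.0), and in RPKM both genes had means 2.78-fold lower on day 14. That of Bcl6 to Prdm1 was -1.80 and -0.33 on day 7 and -0.0085, 0.31 and -0.31 on day 14 (difference 1.06), with 0 Bcl6 reads in the first of these samples. The ratio of Tox to Tox2 follows Tox alone, since Tox2 had no reads.

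**Figure D4:**
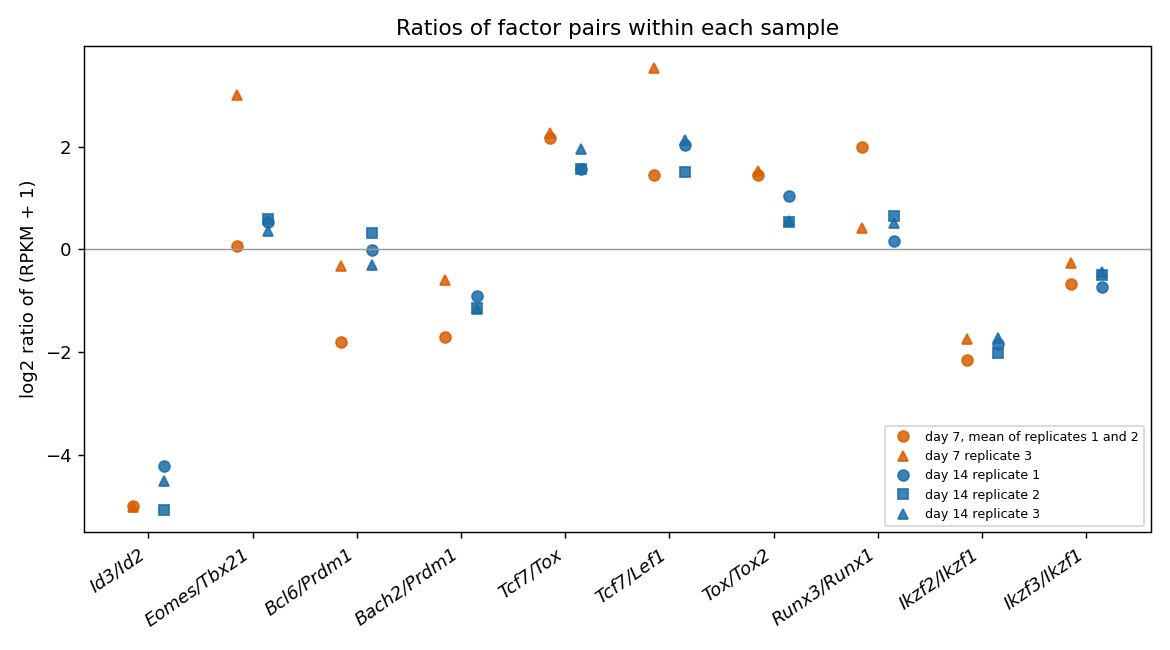
Log2 ratio of (RPKM + 1) of 10 factor pairs within each sample; orange marks are the 2 day 7 samples (circle, mean of replicates 1 and 2; triangle, replicate 3) and blue marks the 3 day 14 libraries. The ratio of Eomes to Tbx21 reaches 3.0 in day 7 replicate 3, against 0.073 in the mean of replicates 1 and 2 and 0.36 to 0.59 on day 14.

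The other pairs overlapped between the days. The log2 ratio of Eomes to Tbx21 was 0.073 and 3.0 on day 7 and 0.53, 0.59 and 0.36 on day 14, so the day 7 samples lay on both sides of the day 14 libraries. Within the Ikaros family the proportions were nearly even across samples, with log2 ratios of Ikzf3 to Ikzf1 from -0.74 to -0.27 and of Ikzf2 to Ikzf1 from -2.15 to -1.72. Runx3 to Runx1 was 1.99 and 0.42 on day 7 and 0.16, 0.65 and 0.51 on day 14.

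Partner proteins and cofactors of these factors mostly gave no call, as did most genes tested (3.18% called lower and 1.7% higher). Of 12 tested genes among 16 (E proteins, CBF-beta, beta-catenin, TLE corepressors, NFAT, AP-1 and IRF factors), Irf8 alone was called, with a mean of 31.6 ± 2.6 RPKM (SD, n = 2) on day 7 and a lower one of 13.3 ± 0.70 (SD, n = 3) on day 14. IRF8 is known from dendritic cells and from effector CD8 T cells. The median log2 fold change of this list was -0.12, beside 0.16 for all genes tested. Cbfb, the obligate partner of the RUNX factors, was at 24.2 ± 6.2 and 20.2 ± 1.3 RPKM, and Tcf3, an E protein bound by the ID factors, at 18.7 ± 0.21 and 12.4 ± 0.83, on day 7 and day 14; neither was called, and both were picked for their role after their values were seen.

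Where genes of T cell programmes were called, all were lower on day 14, beside 3.18% of all tested genes called lower and 1.7% higher. Control of these genes by the factors was not tested. Of 5 tested effector genes 4 fell, Gzma, Gzmb, Prf1 and Ifng, with log2 fold changes of -4.19, -2.99, -2.48 and -2.73. Of 7 tested exhaustion and residency genes 3 fell, Tigit, Havcr2 and Pdcd1 (-1.82, -1.33 and -1.42). Of 3 tested memory surface genes Cd27 fell (-1.78). Of 11 tested T cell genes used for scaling, 5 fell and 6 were not called. Those with the smallest p were Trac (-2.32), Cd2 (-1.78), Lck (-2.25) and Cd3d (-2.12), while Cd3g (-0.75) was among those not called. Cd5, of the same list but not tested, had means of 2.20 RPKM on day 7 and 2.74 on day 14. The medians of the effector, exhaustion and residency, and memory surface lists were -2.73, -0.81 and -1.34, and on the T cell scale -1.05, 0.57 and 0.34, beside 1.85 for all genes tested. The 2 tested natural killer cell markers, Klra8 and Klre1, had a median of -0.93 on the T cell scale; granzymes and perforin are also made by natural killer cells, and their part in the effector values was not tested.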

How the data were processed

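Reads had been trimmed with Trimmomatic 0.36 and counted with featureCounts of Subread 1.5.1 on GRCm38, per the submitters' processing notes. For the aligner, strand setting and use of molecular identifiers, the sources used here give nothing. Values were deposited by the authors as RPKM, 1 table per library, with gene length per the file headers. RPKM times length gave whole reads for every gene (tolerance 0.001), from which CPM were computed.

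limma 3.58.1 in R 4.3.3 was fitted to log2(RPKM + 1) of 5 samples, with genes averaging 20 CPM or more, precision weights for each day (loess of gene variance against mean level, span 0.3, floor 0.005), a variance trend and Benjamini-Hochberg adjustment (calls under 0.05). For scaling to T cell genes, RPKM were multiplied by 1 factor per sample, whose own error is not in the intervals. Not all genes of that scaling list are reported here. Factors, gene lists and settings were chosen with earlier results of these data known. Factors called by limma are given in full, other factors by value, and from each further list up to 4 called genes with the smallest p. Promoters are from RefSeq, without the 50 bases after the start.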

Additional observations from a re-analysis of the deposited data

How the results depend on the processing

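The number of called genes, 327 of 6691, was 531 with a 5 CPM filter, 1465 without a filter, 1011 without weights, 6299 when scaled to T cell genes, 2145 with limma-voom on recovered reads and 1594 with 6 libraries counted singly. It ranged from 130 (without day 7 replicate 3) to 334 when 1 library was left out. The 2 called factors became 0 with either lower filter, 5 without weights, 13 on the T cell scale, 11 with limma-voom and 10 with 6 libraries, and ranged from 0 (without day 7 replicate 3) to 2 with 1 library left out. With 6 libraries and a replicate block, 1163 genes and 6 factors were called. Deviations of same-numbered libraries correlated at -0.0341 to -0.0145. Since day 7 replicates 1 and 2 are nearly alike, these correlations cannot show whether the numbers pair the samples. The 14 factors with an interval above 0 on the T cell scale ranged from 12 to 16 over its alternatives, including a 5 CPM filter added after seeing the data.

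On the T cell scale the sign turned for Batf (1.63), Ets1 (1.66), Foxp3 (1.51), Id2 (1.64), Ikzf1 (0.69), Ikzf2 (0.35), Ikzf3 (0.54), Nr4a2 (0.77), Nr4a3 (1.33), Runx1 (0.97) and Runx3 (0.48). All genes tested had a median of 1.85 there. Batf also turned with limma-voom (0.91), 6 libraries with and without the block (0.36), and without day 7 replicate 3 or day 14 replicate 2 (0.17), with a range of -0.32 to 1.32 when 1 library was left out. Runx1 turned with limma-voom (0.31) and without day 7 replicate 3 (range -0.31 to 0.33), and Foxp3 without day 14 replicate 2 (range -0.41 to 0.028). Pairs without overlap numbered 3 to 8 with 1 library left out. The difference in log2 ratio turned for Eomes to Tbx21 (range -1.1 to 0.42), Tcf7 to Lef1 (-0.71 to 0.44) and Ikzf3 to Ikzf1 (-0.14 to 0.12) without day 7 replicate 3, for Bach2 to Prdm1 (range -0.0084 to 0.64) and Ikzf3 to Ikzf1 (0.0099) without day 14 replicate 1, and for Ikzf2 to Ikzf1 with a pseudocount of 0.1 (-0.17). The causes were not tested. Leaving out day 7 replicate 3 leaves 1 sample on day 7, which was assumed to vary as day 7 samples did in the full set.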

Other observations

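Some genes of T cell programmes also differed within day 7. Day 7 samples were more than 1 log2 unit apart for 32.1% of all genes at the 5 CPM filter. A link of the genes below to the factors was not tested. Klrg1, a receptor of terminal effector cells, was at 14.4 and 17.3 RPKM in day 7 replicates 1 and 2 and 1.08 in replicate 3, and Cd101, a marker of terminally exhausted cells, was at 3.99 and 5.87 against 0.184. Xcl1, a chemokine that attracts cross-presenting dendritic cells, went the other way, with 2.40 and 1.23 RPKM in replicates 1 and 2 and 25.8 in replicate 3, as did S1pr5, with no reads in replicates 1 and 2 and 4.78 RPKM in replicate 3. On day 14 these 4 genes were at means of 1.41, 0.401, 3.81 and 0.342 RPKM. They were picked out after their values were seen.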
